A study of Homo sapiens with 2 samples.

Results

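A set of 42 genes of DNA replication and S phase, listed by symbol, was followed in HUVECs, primary human endothelial cells of the umbilical vein, which lined the walls of microfluidic channels. All 42 symbols were found among the 36601 genes of the count matrices. The list was drawn up with earlier results of these data known. The 5% pdRBC cells were perfused for 4 h with a suspension holding 5% pharmacologically dehydrated red blood cells (pdRBCs) among healthy ones. The dehydrated cells had been made from healthy ones with nystatin and sucrose washes, to a mean hemoglobin concentration of 40 to 42 g/dL, as a stiff-cell model of sickle red blood cells. The hRBC cells were perfused for 4 h with healthy red blood cells alone. Both sets of HUVECs had first been grown in the 50 µm channels for about 48 h under flow. Each condition is 1 library of 10x Genomics 5′ single-cell RNA sequencing, in which a unique molecular identifier (UMI) marks each captured RNA molecule. There is no replicate, so no p-value can be given, and every interval below is a 95% interval that covers counting error only.

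Cells copy their DNA once per division, in S phase. The MCM helicase is loaded onto origins in G1, joined by CDC45 and GINS at firing, and followed by polymerases that a ring-shaped clamp, PCNA, holds on the DNA. Most of these genes are transcribed at the passage from G1 to S phase, when E2F factors are freed from the retinoblastoma protein, and their mRNAs decline through G2 and mitosis at different rates. In a confluent endothelium most cells are known to rest outside the cycle.

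The libraries differed in depth. Barcodes with at least 1000 UMIs, at least 500 genes and no more than 20% mitochondrial UMIs were kept, which left 1601 of 1635 barcodes with 5% pdRBC and 2555 of 3858 with hRBC. The median kept cell held 9566 UMIs with 5% pdRBC and 2175 with hRBC, for totals of 16127985 and 13335148 UMIs. Cells of 5000 or more UMIs numbered 1370 with 5% pdRBC and 769 with hRBC, with medians of 10206 and 12286 UMIs, and held 95.6% and 74.4% of the UMIs. When the kept cells were clustered together, 1 cluster held 47 cells with 5% pdRBC and 1048 with hRBC, with medians of 6624 and 1524 UMIs, so makeup and depth cannot be told apart there. The libraries had 9 barcodes in common, 6 of them kept in both. All 12 endothelial markers were found in both libraries, at summed levels of 4176 CPM (UMIs of a gene or list per 1000000 UMIs of the cells) with 5% pdRBC and 4416 CPM with hRBC. Erythroid markers gave 1 UMI with 5% pdRBC and 12 with hRBC, with HBA1, HBA2, ALAS2 and AHSP at 0 in both, and leukocyte markers gave 11 and 6 UMIs.

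Over all kept cells the replication genes were slightly lower with 5% pdRBC. Their summed level was 527 CPM (8501 UMIs) with 5% pdRBC and 603 CPM (8035 UMIs) with hRBC, a log2 fold of -0.19 (interval -0.24 to -0.15) for 5% pdRBC over hRBC. A level summed over a library cannot tell fewer cells with these RNAs from less RNA per cell. A gene with at least 100 UMIs in the libraries together was called measured, which 35 of the 42 were, and its fold is the ratio of CPM with 0.5 UMIs added to each count. The measured genes had a median log2 fold of -0.12, beside 0.02 for all 11043 measured genes. At least 1.25-fold lower with 5% pdRBC were 9 of the 35, against 4.91% of all measured genes, and at least 1.25-fold higher were 2, POLA1 and CCNE1, against 6.98%. Among genes of no more UMIs than the most abundant member, those shares were 5.42% and 8.56%. A single member was known to a median of ±0.34 on the log2 scale from counting alone, so most individual members cannot be separated from no difference at this depth.

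**Figure D1:**
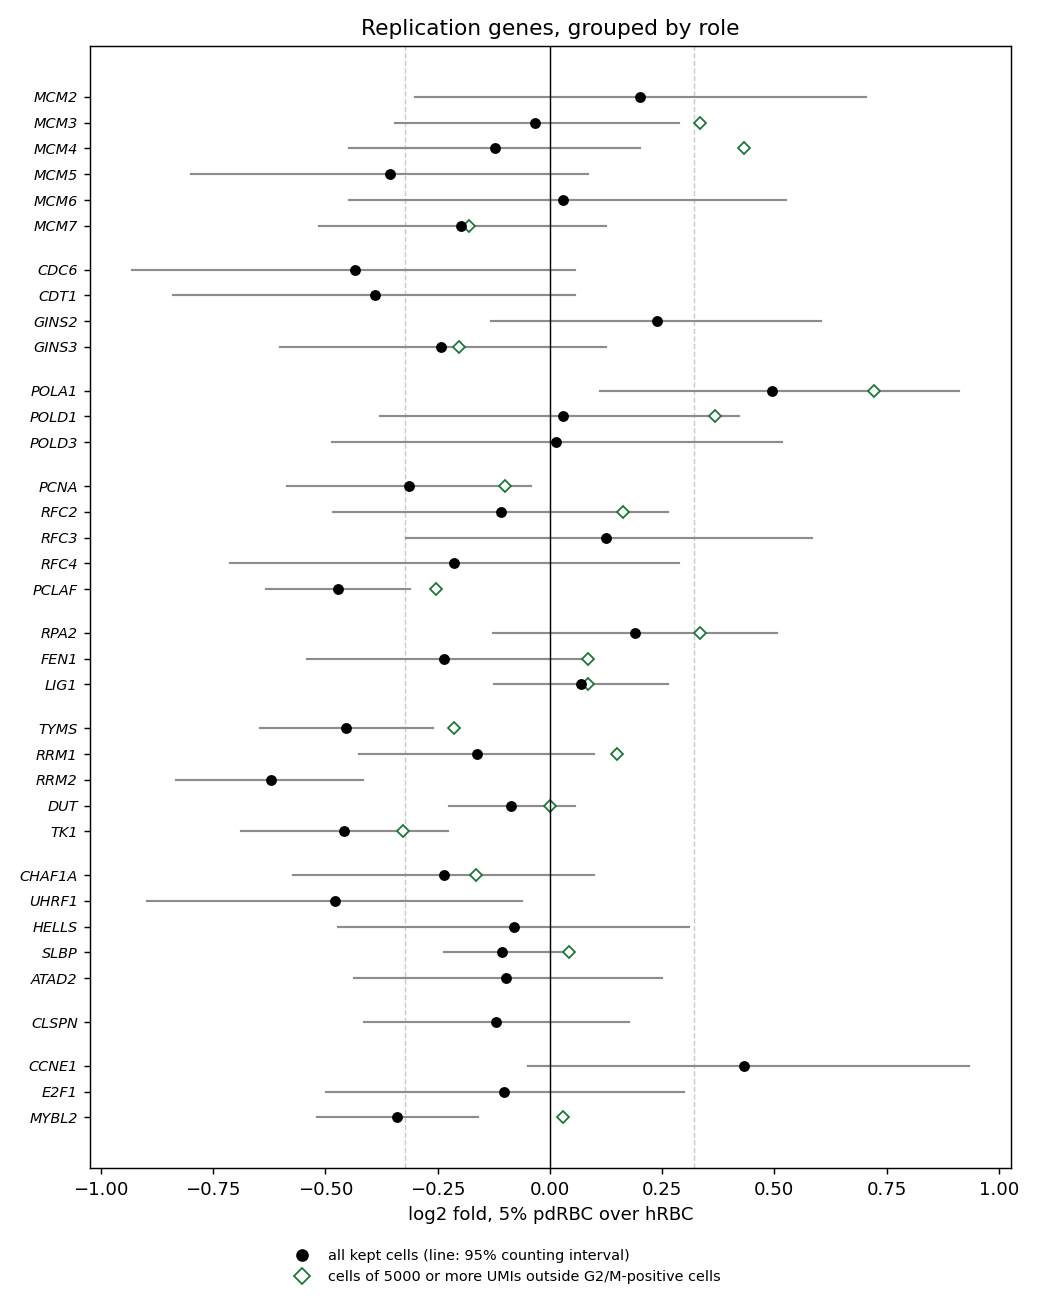
Log2 fold of 5% pdRBC over hRBC (x axis) for the 35 measured replication genes (y axis), grouped by role; filled circles with 95% counting intervals are all kept cells, open diamonds are cells of 5000 or more UMIs that are not G2/M-positive (19 genes with 100 or more UMIs there), and dashed lines mark 1.25-fold. RRM2 lies lowest at -0.62 and POLA1 highest at 0.50, and most diamonds lie to the right of their circles.

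The genes of nucleotide supply, which make and balance the DNA precursors, were lower as a sum over all kept cells. Their 5 members summed to 138 CPM with 5% pdRBC and 171 CPM with hRBC, a log2 fold of -0.31 (-0.40 to -0.23). RRM2, the S phase subunit of ribonucleotide reductase, had 341 UMIs (21.1 CPM) with 5% pdRBC and 434 UMIs (32.5 CPM) with hRBC. That is a fold of 0.650 (0.562 to 0.750), the lowest of the measured members. TYMS, thymidylate synthase, had 416 UMIs (25.8 CPM) with 5% pdRBC and 471 (35.3 CPM) with hRBC, a fold of 0.730 (0.639 to 0.835). TK1, the cytosolic thymidine kinase of S phase, had 295 UMIs (18.3 CPM) with 5% pdRBC and 335 (25.1 CPM) with hRBC, a fold of 0.728 (0.621 to 0.854). The other two of the group lay nearer to even. RRM1, the large reductase subunit, which is present through more of the cycle than RRM2, had a fold of 0.894 (0.745 to 1.07). DUT, the dUTPase that keeps uracil out of DNA, had 916 UMIs with 5% pdRBC and 804 with hRBC, a fold of 0.942 (0.856 to 1.04).

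The clamp and its loader summed to 69.3 CPM with 5% pdRBC and 87.7 CPM with hRBC, a log2 fold of -0.34 (-0.46 to -0.22). Most of that difference came from PCLAF, a small protein that binds PCNA at forks, with 595 UMIs (36.9 CPM) with 5% pdRBC and 682 (51.1 CPM) with hRBC, a fold of 0.721 (0.645 to 0.806). PCNA itself had 224 UMIs (13.9 CPM) with 5% pdRBC and 230 (17.2 CPM) with hRBC, a fold of 0.805 (0.667 to 0.972). The clamp loader subunits RFC2, RFC3 and RFC4 had log2 folds of -0.11, 0.13 and -0.21, each with an interval that spans 0.

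The helicase differed little. Its 6 subunits summed to 48.4 CPM with 5% pdRBC and 51.8 CPM with hRBC, a log2 fold of -0.10 (-0.25 to 0.05). MCM2 had 82 UMIs with 5% pdRBC and 59 with hRBC (log2 fold 0.20), and MCM5 had 86 and 91 UMIs in the same order (log2 fold -0.36); MCM3, MCM4, MCM6 and MCM7 lay between -0.20 and 0.03. Over all kept cells the intervals of all 6 span an even level, and differences among the 6 were not tested. The group that loads and fires origins summed to 33.9 CPM with 5% pdRBC and 39.3 CPM with hRBC, a log2 fold of -0.21 (-0.39 to -0.04). CDC6, which loads the helicase onto origins, had 68 UMIs with 5% pdRBC and 76 with hRBC, a fold of 0.740 (0.525 to 1.04). CDT1, its partner in loading, had 83 and 90 UMIs, a fold of 0.763 (0.559 to 1.04). GINS2, a subunit of the GINS complex of the active helicase, lay on the other side with 151 UMIs (9.36 CPM) with 5% pdRBC and 106 (7.95 CPM) with hRBC, a fold of 1.18 (0.913 to 1.52). GINS3, of the same complex, had 132 and 129 UMIs and a fold of 0.846 (0.659 to 1.09).

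The polymerases were the group furthest on the higher side, at 23.9 CPM with 5% pdRBC and 22.1 CPM with hRBC, a log2 fold of 0.11 (-0.11 to 0.34). POLA1, the catalytic subunit of the polymerase that starts each new strand, had 144 UMIs (8.93 CPM) with 5% pdRBC and 84 (6.30 CPM) with hRBC, a fold of 1.41 (1.08 to 1.88), the highest of the measured members. POLD1 and POLD3, of the lagging strand polymerase, were near even in log2 fold, at 0.02 and 0.01. Single-strand binding and Okazaki fragment joining gave 54.7 CPM with 5% pdRBC and 53.8 CPM with hRBC. In it RPA2, a subunit of the protein that coats single-stranded DNA, had a log2 fold of 0.19, LIG1, the ligase that seals the fragments, 0.07, and FEN1, the nuclease that trims them, -0.23.

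Genes that rebuild chromatin behind the fork and handle histone mRNA summed to 99.6 CPM with 5% pdRBC and 110.0 CPM with hRBC, a log2 fold of -0.14 (-0.24 to -0.03). UHRF1, which brings the maintenance DNA methyltransferase to new DNA, had 92 UMIs (5.70 CPM) with 5% pdRBC and 106 (7.95 CPM) with hRBC, a fold of 0.718 (0.537 to 0.958). SLBP, which binds the stem-loop of histone mRNAs and was the most abundant member, had 1035 UMIs with 5% pdRBC and 921 with hRBC, a fold of 0.929 (0.849 to 1.02). CHAF1A, HELLS and ATAD2 had log2 folds of -0.24, -0.08 and -0.10. Claspin (CLSPN), an adaptor of the replication checkpoint, had 206 UMIs (12.8 CPM) with 5% pdRBC and 185 (13.9 CPM) with hRBC, a fold of 0.920 (0.751 to 1.13). Of the cell cycle regulators, CCNE1, the cyclin of the entry into S phase, had 95 UMIs (5.89 CPM) with 5% pdRBC and 58 (4.35 CPM) with hRBC, a fold of 1.35 (0.967 to 1.91). E2F1, a transcription factor of the same step, had a log2 fold of -0.10. MYBL2, which acts later and serves the G2 genes too, had 499 UMIs (30.9 CPM) with 5% pdRBC and 522 (39.1 CPM) with hRBC, a fold of 0.790 (0.698 to 0.895).

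Below 100 UMIs were 7 members, given by counts only. MCM10 had 21 UMIs with 5% pdRBC and 40 with hRBC, PRIM1 7 and 16, CDC45 45 and 52, and POLE2 39 and 35. GINS1 had 47 UMIs with 5% pdRBC and 31 with hRBC, CCNE2 47 and 35, and CHAF1B 54 and 45. Each had UMIs in both libraries.

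Start-site sequences are shown for 3 genes from the low end of the folds and 2 from the high end, to set letters known for S phase and G2 promoters beside the values. They come from RefSeq (GRCh38.p14), 5′ to 3′ on the strand of the gene, and are the 250 bases before an annotated start; capitals mark each match to 1 of 4 E2F words (TTTCCCGC, TTTGGCGC, TTTGCCGC, TTTCGCGC) or to CCAAT, on either strand. RRM2 is from chr2:10122489-10122738, plus strand, PCLAF from chr15:64381442-64381691, minus strand, TYMS from chr18:657403-657652, plus strand, POLA1 from chrX:24693668-24693917, plus strand, and GINS2 from chr16:85688955-85689204, minus strand. RRM2 and PCLAF each have a second annotated start whose window is not printed. The printed genes were not taken strictly by rank. Not printed are UHRF1, second lowest over all cells, and CCNE1, second highest. With the 50 bases after the start taken in, UHRF1 holds both kinds of word and CCNE1 neither.
RRM2: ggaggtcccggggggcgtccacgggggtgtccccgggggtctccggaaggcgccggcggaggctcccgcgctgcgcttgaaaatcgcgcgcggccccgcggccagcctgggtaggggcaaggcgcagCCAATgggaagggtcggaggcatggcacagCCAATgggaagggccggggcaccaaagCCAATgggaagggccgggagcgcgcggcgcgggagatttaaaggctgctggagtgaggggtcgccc
PCLAF: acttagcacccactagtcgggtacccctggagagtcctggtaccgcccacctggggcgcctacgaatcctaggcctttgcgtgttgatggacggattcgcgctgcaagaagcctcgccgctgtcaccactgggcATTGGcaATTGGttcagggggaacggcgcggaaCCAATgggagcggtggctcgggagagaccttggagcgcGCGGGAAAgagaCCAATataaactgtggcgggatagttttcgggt
TYMS: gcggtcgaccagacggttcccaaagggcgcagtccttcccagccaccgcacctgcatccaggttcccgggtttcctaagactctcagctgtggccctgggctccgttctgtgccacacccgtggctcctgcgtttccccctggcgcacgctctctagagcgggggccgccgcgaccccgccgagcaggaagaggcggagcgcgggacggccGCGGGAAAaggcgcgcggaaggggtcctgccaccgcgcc
POLA1: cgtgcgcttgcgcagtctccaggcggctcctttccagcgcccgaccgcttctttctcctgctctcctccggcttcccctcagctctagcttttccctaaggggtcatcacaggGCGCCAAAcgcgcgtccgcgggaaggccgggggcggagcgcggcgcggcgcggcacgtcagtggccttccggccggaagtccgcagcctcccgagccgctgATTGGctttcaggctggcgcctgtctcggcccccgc
GINS2: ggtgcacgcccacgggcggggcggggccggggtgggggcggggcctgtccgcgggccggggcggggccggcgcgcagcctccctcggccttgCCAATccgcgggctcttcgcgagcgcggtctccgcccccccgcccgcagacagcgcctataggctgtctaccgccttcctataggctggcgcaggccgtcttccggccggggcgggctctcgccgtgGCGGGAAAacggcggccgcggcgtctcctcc
The RRM2 window holds 3 CCAAT words, which begin 123, 93 and 66 bases before the start, and none of the E2F words. PCLAF holds both kinds, an E2F word that begins 45 bases before the start and 4 CCAAT words, and TYMS an E2F word at 39 bases and no CCAAT. POLA1 has its E2F word at 137 bases and GINS2 at 31 bases, each with 1 CCAAT. Windows that also take in the 50 bases after the start were found for 36 of the 42 members, 50 windows in all. An E2F word lay in 22 of the 50 windows (44.0%), against 4.10% of 22199 windows of protein-coding genes, and CCAAT in 52.0% against 34.7%. Counted by gene, 21 of the 36 (58.3%) held an E2F word, against 5.40% of 15843 protein-coding genes. Set beside the folds, the 19 measured members that hold one had a median log2 fold of -0.10 (range -0.48 to 0.50), and the 11 that hold none had -0.21 (-0.62 to 0.43). These letters were matched, and binding of a factor was not measured.

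Every member was found at a higher level in the same small group of cells, though most of the summed UMIs of the 42 genes lay outside it. With cells chosen by the other 41 genes, as below, some members had more UMIs inside than outside. These were E2F1, RRM2, CLSPN, UHRF1, CDC6, MCM10, CDC45, GINS1 and CCNE2. Cells of 5000 or more UMIs were thinned to 5000 UMIs each, which left out 231 shallower cells with 5% pdRBC and 1786 with hRBC. The mean cell then held 2.55 UMIs of the 42 genes with 5% pdRBC and 2.71 with hRBC, and 20.7% and 20.8% of cells held none. The richest 10% of cells carried 48.0% of the replication UMIs with 5% pdRBC and 45.0% with hRBC. Cells with 10 or more such UMIs, called replication-rich here, were 68 of 1370 (4.96%, 3.87 to 6.25) with 5% pdRBC and 44 of 769 (5.72%, 4.19 to 7.61) with hRBC, and these intervals overlap. Other limits gave intervals that do not: unthinned, 11.5% (9.89 to 13.3) of these cells with 5% pdRBC and 16.8% (14.2 to 19.6) with hRBC held 10 or more, where the median hRBC cell was also deeper. Thinned to 2000 UMIs, with cells of 2000 or more UMIs entering, 5.97% (4.85 to 7.27) with 5% pdRBC and 9.24% (7.76 to 10.9) with hRBC held 4 or more. At 20 or more UMIs of 5000 the order was the other way, with 1.68% (1.07 to 2.51) with 5% pdRBC and 1.30% (0.625 to 2.38) with hRBC, so the comparison of these shares depends on the limit and depth chosen. Of the cells, 43 with 5% pdRBC and 32 with hRBC lay at 8 to 11 UMIs, near the limit. No cell type that lacks replication RNAs was at hand to gauge free RNA, so UMIs of the many cells with 1 or 2 cannot be told apart from it.

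**Figure D2:**
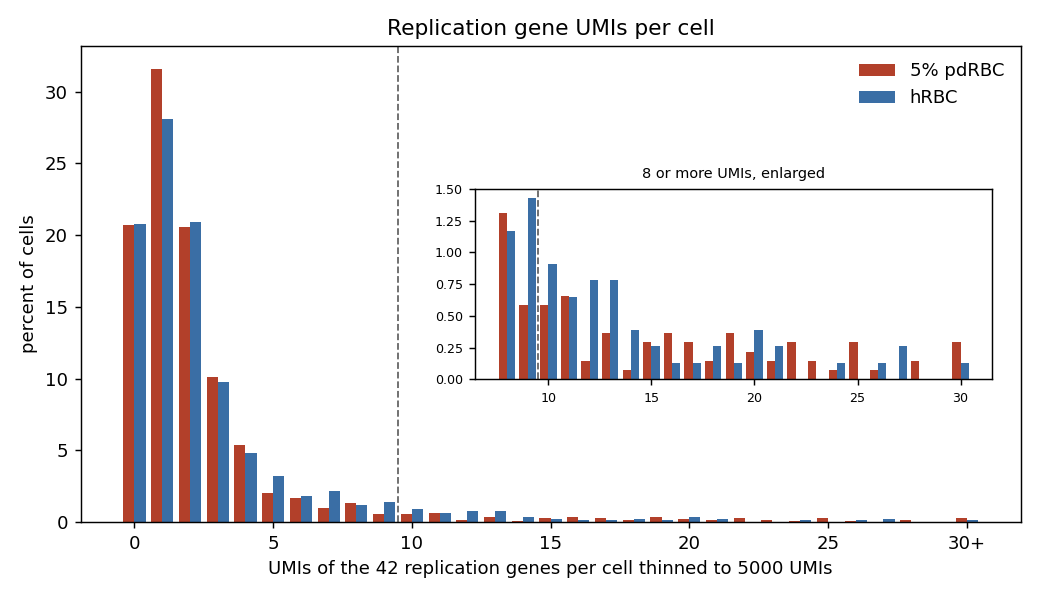
Percent of cells (y axis) by UMIs of the 42 replication genes (x axis) in cells thinned to 5000 UMIs, 1370 cells with 5% pdRBC and 769 with hRBC; the dashed line marks the limit of 10 UMIs and the inset enlarges 8 or more. The 2 distributions run close together, with 20.7% and 20.8% of cells at 0 and long thin tails.

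To see which members go together, each gene was compared between cells rich in the other 41 and the remaining cells, so that it took no part in choosing them. All 42 were higher in the rich cells, and the ratio was above 3 for 38 of them, with a median of 8.98 over the measured members. Among the 35 measured members it was highest for E2F1, at 91.6 against 2.80 CPM with 5% pdRBC and a ratio over both libraries of 26.7. CLSPN and RRM2 followed at 22.0 and 21.3. Of the members under 100 UMIs, MCM10 lay higher still at 62.7 (31.6 to 136), and GINS1 and CCNE2 had 23.8 and 21.8. It was lowest for LIG1, at 52.0 against 28.9 CPM with 5% pdRBC and 1.96 over both libraries, then SLBP at 2.19, RPA2 at 2.66 and DUT at 2.88. These 4 were the members least confined to rich cells, and none of them differed by 1.25-fold over all cells.

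**Figure D3:**
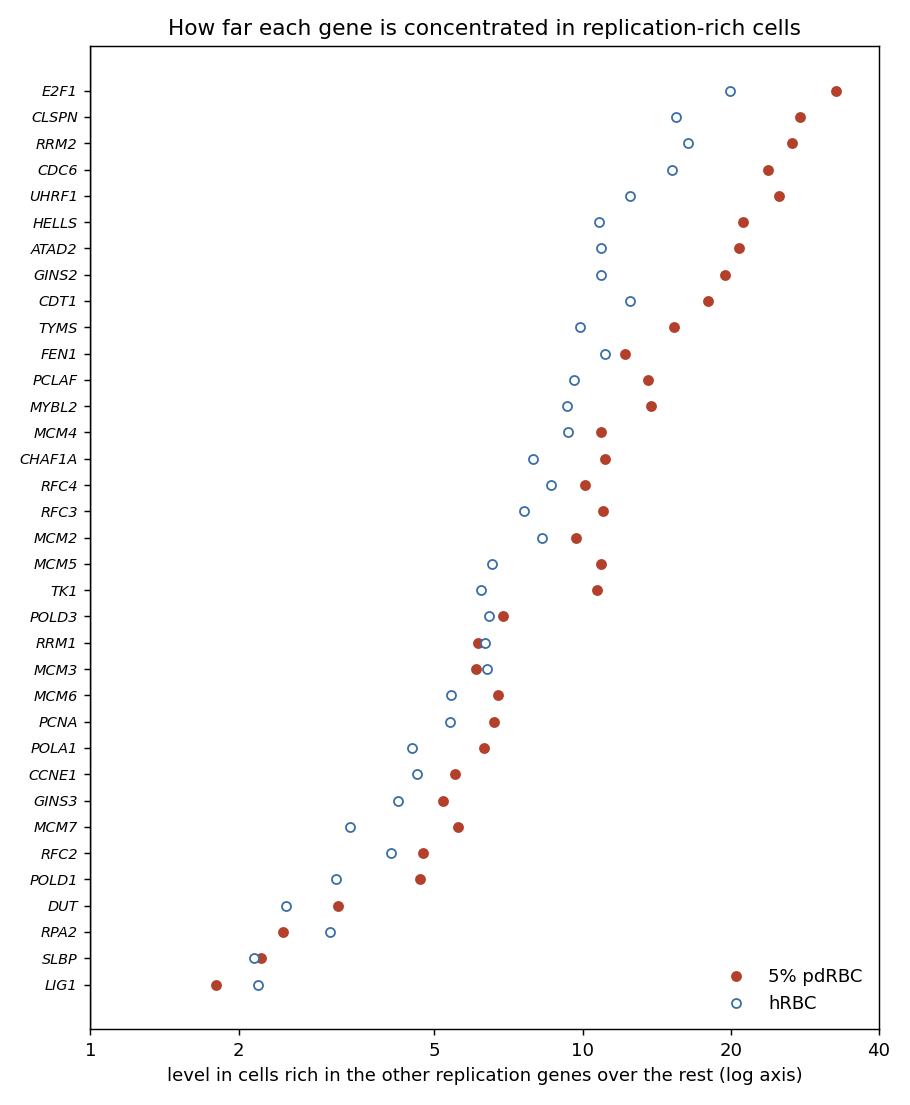
Ratio of each measured gene's level in cells rich in the other replication genes over its level in the remaining cells (x axis, log scale), for 5% pdRBC (filled) and hRBC (open), in cells of 5000 or more UMIs. Every gene lies to the right of 1 in both libraries, with LIG1 and SLBP lowest and CLSPN and E2F1 highest.

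Markers of a later stage moved with these values. A list of 27 genes of G2 and M phase summed to 251 CPM with 5% pdRBC and 368 CPM with hRBC, with a median log2 fold of -0.60, and 21 of its 25 measured genes were at least 1.25-fold lower with 5% pdRBC. CDC20, which switches on the anaphase-promoting complex, had 7.87 CPM with 5% pdRBC and 16.9 CPM with hRBC, and HMMR, DLGAP5 and CDCA8, of the mitotic spindle, had log2 folds of -0.96, -0.79 and -0.79. A cell was called G2/M-positive at 3 or more UMIs of that list that make up 0.05% or more of its UMIs. The list holds MKI67, TOP2A and CENPF, which cells late in S phase transcribe too, so the class is a range of a score and not a phase. Cells at 0.03 to 0.07%, near the limit, were 49 of 1601 with 5% pdRBC and 137 of 2555 with hRBC. In cells thinned to 5000 UMIs, 8.32% (6.91 to 9.91) with 5% pdRBC and 13.3% (10.9 to 15.9) with hRBC held 3 or more UMIs of the list, and unthinned the class made up 8.47% and 13.8% of cells of 5000 or more UMIs.

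Replication-rich cells lay almost wholly inside that class. In the thinned cells, 4.31% with 5% pdRBC and 5.07% with hRBC were both replication-rich and G2/M-positive, and 0.657% and 0.650% were replication-rich alone. Cells that were G2/M-positive alone made up 4.01% (3.04 to 5.19) with 5% pdRBC and 8.19% (6.35 to 10.4) with hRBC, intervals that cover the counting of cells in 1 library each and not variation between cultures. Of G2/M-positive cells of 5000 or more UMIs, 59 of 116 (50.9%, 41.4 to 60.3) with 5% pdRBC and 39 of 106 (36.8%, 27.6 to 46.7) with hRBC were replication-rich, and these intervals overlap.

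Outside G2/M-positive cells the lower level of the replication genes depended on the depth of the cells and on how dividing cells were found. Without those cells it was 334 CPM with 5% pdRBC and 383 CPM with hRBC, a log2 fold of -0.20, with 7 of 26 measured members at least 1.25-fold lower, against 4.81% of all measured genes, and 2 higher, against 6.84%. In cells of 5000 or more UMIs of any class, it was 525 CPM with 5% pdRBC and 566 CPM with hRBC, a log2 fold of -0.11 (-0.16 to -0.06). There 5 of 35 measured members were at least 1.25-fold lower, against 4.47%, and 2 higher, against 8.78%. The 5 were CDC6 (log2 fold -0.61), RRM2 (-0.55), TYMS (-0.40), PCLAF (-0.37) and GINS3 (-0.33), with CHAF1A and MCM5 (-0.29 each) and TK1 (-0.26) next. The 2 were POLA1 (0.58) and CCNE1 (0.54), followed by MCM2 (0.27) and POLD1 (0.25). With both limits it was 333 CPM with 5% pdRBC and 320.0 CPM with hRBC, a log2 fold of 0.05 (-0.02 to 0.12), with 1 of 19 measured members lower, against 4.41%, and 5 higher, against 9.17%. The one of these 19 that stayed lower was TK1, at 8.37 CPM with 5% pdRBC and 10.5 CPM with hRBC, a fold of 0.797 (0.600 to 1.07). The 5 on the higher side were POLA1 (log2 fold 0.72), MCM4 (0.43), POLD1 (0.37), MCM3 (0.34) and RPA2 (0.33), and of these only the interval of POLA1, 1.11 to 2.54 as a fold, leaves out an even level. Members under 100 UMIs in these cells are outside those counts. Among them, RRM2 was lower, with 34 UMIs with 5% pdRBC and 35 with hRBC, a fold of 0.584 (0.353 to 0.963). On the higher side were MCM2 (fold 1.89, 1.02 to 3.94), RFC3 (1.88, 1.04 to 3.81) and GINS2 (1.71, 1.03 to 3.06). The intervals of the other members under 100 UMIs span an even level. In cells under 5000 UMIs outside the class the level was 375 CPM (232 UMIs) with 5% pdRBC and 559 CPM (1671 UMIs) with hRBC. In them the G2 and M phase list was lower too, at 58.2 CPM with 5% pdRBC and 118 CPM with hRBC, and they held a median of 3151 and 1598 UMIs. At that depth a cell reaches 3 UMIs of the list less often, and the part this plays in the difference was not tested.

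Within G2/M-positive cells of 5000 or more UMIs 5% pdRBC lay higher, and in shallower ones the interval spans an even level. The replication genes summed to 2398 CPM (3444 UMIs) in the 116 cells with 5% pdRBC and 1914 CPM (2932 UMIs) in the 106 cells with hRBC, a fold of 1.25 and a log2 fold of 0.33 (0.25 to 0.40). In the G2/M-positive cells under 5000 UMIs, 34 with 5% pdRBC and 187 with hRBC, they summed to 1790.0 CPM (176 UMIs) and 1765 CPM (742 UMIs), a log2 fold of 0.02 (-0.23 to 0.26). In the deeper cells all 18 members measured there had a positive log2 fold, with a median of 0.29 beside 0.04 for all genes measured in those cells, and 8 were at least 1.25-fold higher, against 13.7%, with 0 lower, against 8.46%. CLSPN had 109 CPM (156 UMIs) with 5% pdRBC and 67.9 CPM (104 UMIs) with hRBC there, a fold of 1.60 (1.24 to 2.07). E2F1 had 52.9 and 33.3 CPM in the same order, and GINS2 61.3 and 39.8 CPM. RRM2 had 203 CPM with 5% pdRBC and 177 CPM with hRBC, a fold of 1.15 (0.968 to 1.36), on the other side of even from its value over all cells. Every role had a positive log2 fold in these cells, from 0.19 for single-strand binding and Okazaki fragments to 0.68 for CLSPN alone. The G2 and M phase list in the same cells was 2191 CPM with 5% pdRBC and 2007 CPM with hRBC. That list also chose the cells, so its level there is shaped by the choice. These cells are few, and cells share 1 device run per condition, so the intervals do not cover variation between cultures.

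**Figure D4:**
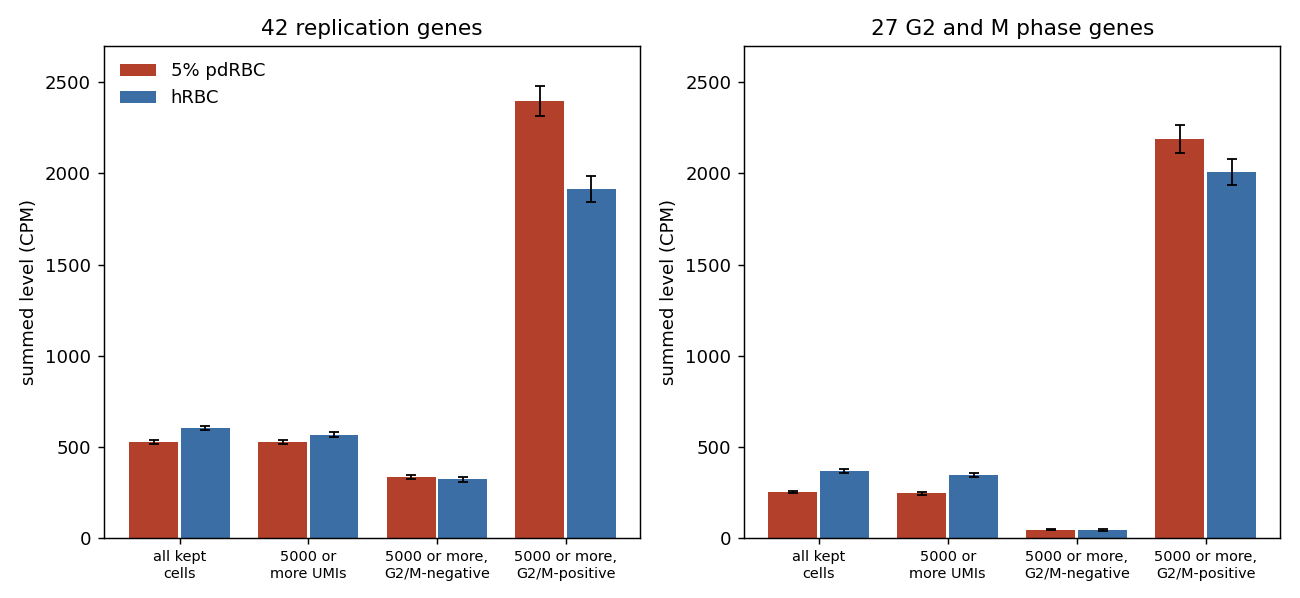
Summed level in CPM (y axis, from 0) of the 42 replication genes (left panel) and of the 27 G2 and M phase genes (right panel) for 5% pdRBC and hRBC in 4 sets of cells (x axis); error bars are approximate 95% counting intervals. Over all kept cells 5% pdRBC lies below hRBC in both panels, and in G2/M-positive cells of 5000 or more UMIs it lies above, at 2398 against 1914 CPM for the replication genes. The genes of the right panel also define which cells are G2/M-positive.

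The members differed in how much of their RNA lay in G2/M-positive cells, and their folds over all cells differed with it. These cells held 42.6% of replication UMIs with 5% pdRBC and 45.7% with hRBC, but 9.51% and 14.6% of all UMIs. Over both libraries the share per member ran from 15.4% for LIG1 to 81.8% for RRM2, with a median of 47.7% over the 35 measured members. The 15 members with more than 50% of their UMIs there had a median log2 fold of -0.34, 13 of them below 0, and the 20 with 50% or less had -0.10, 12 of them below 0. As a description across the 35 genes, which share the 2 libraries and whose shares and folds come from the same UMIs, the share and the log2 fold had a Pearson correlation of -0.50 and a Spearman correlation of -0.50. RRM2 (81.8%), MYBL2 (68.8%), TYMS (66.2%) and PCLAF (65.5%) stood at the low end with a high share. GINS2 broke the order with a share of 64.2% and a log2 fold of 0.23, as did CLSPN at 74.4% and -0.12.

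**Figure D5:**
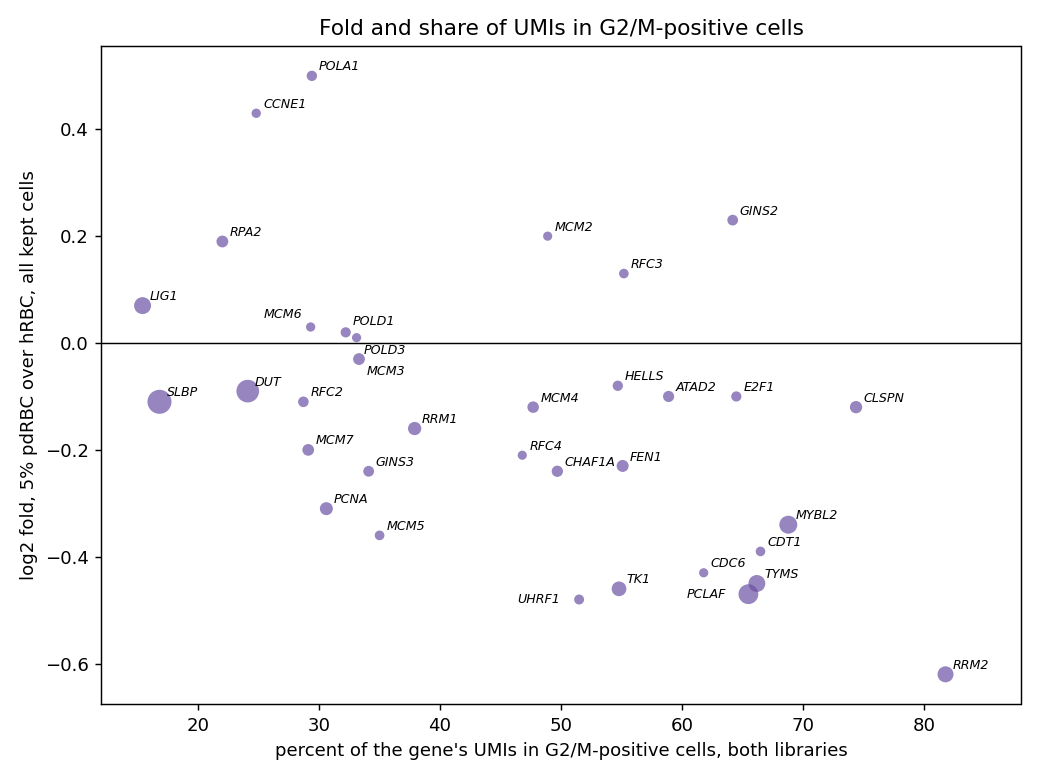
Log2 fold of 5% pdRBC over hRBC over all kept cells (y axis) against the percent of each gene's UMIs found in G2/M-positive cells of both libraries (x axis) for the 35 measured replication genes; larger points have more UMIs. RRM2 lies at the lower right with 81.8% and -0.62, and POLA1 and CCNE1 at the upper left.

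Another 58 genes of replication and its repair, which are not members, lay closer to even. They summed to 1116 CPM with 5% pdRBC and 1154 CPM with hRBC, a log2 fold of -0.05, with a median of -0.02 over the 48 measured. At least 1.25-fold lower with 5% pdRBC were 4 of the 48 (beside 4.91% of all measured genes), and 0 were higher (beside 6.98%). Among them were RPA3 (10.2 CPM with 5% pdRBC and 15.8 CPM with hRBC, log2 fold -0.63), the S and G2 cyclin CCNA2 (-0.54) and the histone chaperone ASF1B (-0.49). In cells of 5000 or more UMIs, 2 of 45 were lower, RPA3 (-0.63) and CCNA2 (-0.46), and 4 were higher, shares near those of all measured genes there (4.47% and 8.78%). Among the 4 were the mismatch repair gene MSH6 (0.68), the uracil glycosylase gene UNG (0.45) and ORC5 (0.33), of the origin recognition complex. A further list of 70 histone genes was picked by the start of their symbols, not by whether they are expressed in S phase. Of these, 7 were measured, with a median log2 fold of -0.19, 4 below 0 and 3 above. At least 1.25-fold lower were 3 of the 7 (beside 4.91% of all measured genes), and 0 were higher (beside 6.98%). HIST1H4C had 347 UMIs (21.5 CPM) with 5% pdRBC and 673 (50.5 CPM) with hRBC, a log2 fold of -1.23 that was the same in cells of 5000 or more UMIs and -1.20 there outside G2/M-positive cells. HIST1H1E (-1.49) and HIST1H1C (-0.96) were lower over all cells, but had log2 folds of -0.02 and -0.08 in cells of 5000 or more UMIs. HIST3H2A (0.29) and HIST1H2AC (0.25) lay on the other side over all cells. G2/M-positive cells held 7.03% and 6.90% of the UMIs of these 2 genes, against 46.9% for HIST1H4C. Of 16 measured genes of G1 and cell cycle exit, 1 was at least 1.25-fold lower with 5% pdRBC, CDK6 (log2 fold -0.33), and 1 higher, MYC (0.55). Those counts are near the shares of all measured genes (4.91% and 6.98%), and the median of the 16 was -0.04.

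Some members share bases with other genes. Per GENCODE release 29, 14 members overlap a gene on the other strand, among them TYMS with TYMSOS and ENOSF1 and GINS2 with GSE1, and 6 overlap one on their own strand. Pseudogenes named for the parent are annotated for 7 members: 8 for DUT, 3 each for PCNA, RPA2 and RRM2, 2 for TYMS, and 1 each for FEN1 and RFC3. Whether the counting used strand or dropped reads that match copies is not given in the sources used here, so the values of these members are uncertain to that extent.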

How the data were processed

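The authors deposited unnormalized UMI counts for every gene in every barcode, from Cell Ranger 7.0.0 on GRCh38, per the submitters' processing notes. Those notes and the labels do not name the annotation release, strand use or intron counting. The members and all other lists were chosen with earlier results of these data known. Cells were kept at a minimum of 1000 UMIs and 500 genes and a maximum of 20% mitochondrial UMIs, a filter the sources do not state. UMIs were summed per library and cell set and scaled to CPM, and a fold divides the CPM of 5% pdRBC by that of hRBC after adding 0.5 UMIs to each sum. Its 95% interval is exact (Clopper-Pearson), from the split of the UMIs between the libraries, and shares have exact binomial intervals. A count of 0 allows up to 3 counts, 0.186 CPM with 5% pdRBC and 0.225 CPM with hRBC. With 1 library per group no test was made. Thinning used seed 1. Doublets were not called, and the alternative without the 2% of cells of most UMIs bears on them. Clusters, used in alternatives and to describe the libraries, came from Scanpy 1.11.5 (2000 variable genes, 30 components, 15 neighbours, Leiden resolution 0.5). They were called mitotic at 3 or more G2 and M phase genes among their 20 leading genes. Fold and interval code was tested on simulated counts. The text gives values for the measured members with the 8 lowest and 4 highest folds over all cells and in cells of 5000 or more UMIs, at least 1 of each role, and up to 4 genes of each other list at either end. Other members are given by log2 fold or counts. Some genes of the other lists are counted but not reported here by name. Python 3.11.15, numpy 2.4.6 and scipy 1.17.1 were used.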

Additional observations from a re-analysis of the deposited data

How the results depend on the processing

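The summed log2 fold of the 42 genes was -0.19 over all kept cells. It was -0.11 in cells of 5000 or more UMIs, 0.05 there without G2/M-positive cells, -0.05 without mitotic clusters, -0.32 with every cell weighted equally, and -0.32 in cells thinned to 2000 UMIs. Chosen after seeing the data were kept cells under 5000 UMIs (-0.31, with a median of -0.60 over 8 measured members) and cells of 5000 or more UMIs without mitotic clusters (0.02). Members at least 1.25-fold lower, 9 of 35 measured in the report, were in the same order 5 of 35, 1 of 19, 3 of 25, 15 of 35 and 5 of 9. They were 7 of 8 in the shallow cells, 1 of 20 in deep cells without mitotic clusters, and 5 of 8 when genes needed 500 UMIs. Those at least 1.25-fold higher, 2 of 35 in the report, were with the same totals 2 in cells of 5000 or more UMIs, 5 there without G2/M-positive cells, and 3 without mitotic clusters. They were 1 with equal weights, 0 thinned, 1 in shallow cells, 4 in deep cells without mitotic clusters, and 0 at the minimum of 500 UMIs. Shares of all measured genes are given above for all kept cells and for cells of 5000 or more UMIs, with and without G2/M-positive cells. They are not given for mitotic clusters, equal weights, thinned cells, shallow cells or the 500 UMI minimum. Member counts in those settings therefore cannot be set against all genes. The share of cells at 10 or more replication UMIs, 4.96% with 5% pdRBC and 5.72% with hRBC, was 11.6% and 15.6% at 5 or more, 1.68% and 1.30% at 20 or more, and 0.718% and 0.754% outside G2/M-positive cells. Without thinning and over kept cells of every depth, where 5% pdRBC cells are deeper, it was 10.1% with 5% pdRBC and 5.99% with hRBC, but unthinned in cells of 5000 or more UMIs it was 11.5% and 16.8%; thinned to 2000 UMIs with 4 or more it was 5.97% and 9.24%. Of single genes called at 1.25-fold, 4 changed sign in the settings of this section. MCM5 went to 0.03 in deep cells without mitotic clusters, and MYBL2 to 0.02 in deep cells without G2/M-positive cells. CDC6 went to 1.21 in kept cells under 5000 UMIs. CCNE1 went to -0.08 when thinned to 2000 UMIs and -0.56 in kept cells under 5000 UMIs. G2/M-positive cells of 5000 or more UMIs are not among these settings. There, all genes called lower over all kept cells except MCM5 (-0.11) had positive log2 folds. These ran from 0.02 for CDC6 to 0.64 for UHRF1. Intervals there span an even level for MCM5, RRM2, TYMS, CDC6 and CDT1. POLA1 and CCNE1, called higher, stayed positive there. The cause was not tested, and the thinned and shallow sets rest on fewer UMIs per gene. With all barcodes, the stricter cell filter, folds centred on the median of all genes, no shared barcodes, or without the 2% of cells of most UMIs, all 35 measured members moved by less than their counting interval. The depth gap between the libraries limits comparison of single cells under 5000 UMIs. No paired analysis was possible because each condition has 1 library.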
